A study of Mus musculus and Homo sapiens with 10 samples.

Results

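This account covers the broad regions of trimethylated histone H3 lysine 4 (H3K4me3) that were called lower after knockdown of CBX8 in MDA-MB-231-Luc cells. Members were chosen by direction and length: regions of the human lower list of at least 6000 bp, with the mitochondrial chromosome left out. There were 305 such regions among 3852 human regions called changed in either direction. These cells derive from the human breast cancer line MDA-MB-231, which is an established line. The knockdown cells carried a short hairpin RNA against CBX8 and the control cells a scrambled hairpin. Cells of both groups were taken after lentiviral infection and puromycin selection, and their genotypes are labelled CBX8 knockdown and wild type. Chromatin was digested with micrococcal nuclease and mononucleosomes were precipitated with an H3K4me3 antibody. Each condition had 1 library, so no difference given here has a replicate check and no test between conditions was possible.

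H3K4me3 is placed by methyltransferase complexes that contain WDR5, the protein named with CBX8 in the study's title, and it is concentrated around the starts of transcribed genes. At most active genes it forms a narrow peak. At a minority of genes it spreads over several kilobases into a broad domain, and such domains are known to lie often at genes that define the identity of a cell. CBX8 is a chromodomain subunit of Polycomb repressive complex 1, which is best known for gene silencing. Each region below is named by its hg19 position, counted from 1. Where a region is called a domain below, its length is that of the region called lower. The breadth of the mark itself is not given in the lists. No hg19 gene annotation or sequence was used here, so regions were not tied to genes.

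The 305 broad lower regions made up 24.6% of the 1240 lower regions outside the mitochondrial chromosome (95% Clopper-Pearson interval 22.2 to 27.1%, regions as units). They held 2.48 Mb of the 6.16 Mb in that list, or 40.4% of its base pairs. For background, 32.2% of the 3851 changed regions outside the mitochondrial chromosome were called lower. Direction chose the members, so nothing is read from that share. The lists hold only regions past the authors' threshold, and the number of regions tested is not given in them. They hold no fold, score or read count either, so neither the depth of the libraries nor the size of the loss in any region is known here.

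Most broad lower regions were only somewhat longer than the minimum. The median length was 7450 bp, with quartiles of 6600 and 9150 bp. There were 120 regions under 7000 bp and 134 from 7000 to under 10000 bp. A further 51 regions were at least 10000 bp long, and 21 of these were at least 12000 bp. Across the minimum the list ran on without a gap. The regions just inside it lay on chromosomes 4 (83817401 to 83823400), 14 (67706501 to 67712500) and 13 (76052451 to 76058450), and each was 6000 bp long. Those just outside lay on chromosomes 10 (32664151 to 32670100 and 23727201 to 23733150) and 3 (165177901 to 165183850), and each was 5950 bp long. In all, 5 regions measured exactly 6000 bp and 11 exactly 5950 bp. The region left out by the chromosome rule was a mitochondrial call of 16500 bp, from DNA that carries no histones.

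The longest domains were spread over many chromosomes. The longest of all, 21.65 kb, lay on chromosome 1 (94693751 to 94715400), followed by 16.35 kb on the same chromosome (156082651 to 156099000) and 15.95 kb on chromosome 11 (122037151 to 122053100). Next were 14.85 kb on chromosome 10 (22603051 to 22617900) and 14.55 kb on each of chromosomes 3 (150123301 to 150137850) and 21 (36250701 to 36265250). Chromosome 17 held a domain of 14.3 kb (62647251 to 62661550). A pair on chromosome 14 measured 13.9 kb (62208501 to 62222400) and 13.15 kb (62160601 to 62173750), with 34.75 kb between them. The remaining 6 of the 15 longest lay on chromosomes 7, 10, 8 and 1. They were 13.45 kb (chromosome 7, 14019051 to 14032500), 13.35 kb (chromosome 10, 42384151 to 42397500) and 13.3 kb (chromosome 10, 33613851 to 33627150). They also included 12.75 kb (chromosome 8, 115597551 to 115610300), 12.7 kb (chromosome 1, 8077051 to 8089750) and 12.55 kb (chromosome 7, 134327451 to 134340000). Thus 9 chromosomes held the 15 longest domains, and chromosomes 1 and 10 held 3 each. None of these regions was checked here for repeated sequence or for how well reads map there.

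All 23 chromosomes of the lower list other than the mitochondrial one held at least 1 broad lower region. Chromosome 6 had the most, 37, followed by chromosomes 1 with 30, 4 with 25, 14 with 23 and 10 with 22. These 5 chromosomes held 44.9% of the broad regions and 37.5% of all lower regions. They were picked for their counts of broad regions, which favours a larger first share, so nothing is read from the difference. The share of a chromosome's lower regions that were broad differed among chromosomes. It was 37.3% on chromosome 10 (22 of 59, 95% Clopper-Pearson interval 25.0 to 50.9%) and 35.7% on chromosome 4 (25 of 70, 24.6 to 48.1%). On chromosome 19 it was 11.8% (10 of 85, 5.79 to 20.6%), and on chromosome 16 it was 3.33% (1 of 30, 0.0844 to 17.2%). The highest share was on chromosome 21, 44.4% (4 of 9, 13.7 to 78.8%). Chromosomes 17, with 11.8% (4 of 34), and 22, with 7.69% (1 of 13), also had small shares. Chromosome 19 thus held many lower regions, of which a small share were broad. Its 10 broad regions reached no more than 9250 bp. These chromosomes were named after their shares were seen, and the intervals take regions as independent.

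**Figure D1:**
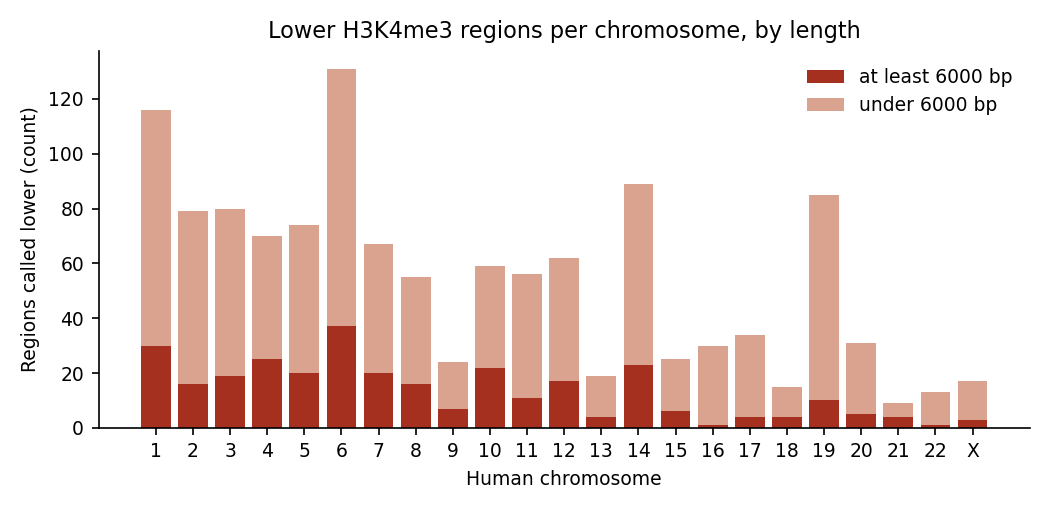
Number of regions called lower on each human chromosome, with regions of at least 6000 bp in dark red and shorter regions stacked above in light red. Chromosome 6 has the most broad regions, 37, while chromosome 19 has 10 of 85 and chromosome 16 has 1 of 30.

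Most broad lower regions had no other broad one within 100 kb. Such spacing depends on how many regions are counted, and no expected spacing was computed. The median distance from a broad lower region to the nearest other was 2.23 Mb, with quartiles of 0.724 and 5.08 Mb, over the 303 regions with another on the same chromosome. Chromosomes 16 and 22 held 1 each. Only 16 regions, 5.28% (95% Clopper-Pearson interval 3.05 to 8.43%), had another within 100 kb, and these formed 8 pairs and no larger run. All 8 are given, chosen after they were seen. The closest pair lay on chromosome 15, where 93423751 to 93430850 and 93441901 to 93452500 were 11.05 kb apart. A pair on chromosome 4 (174250651 to 174258350 and 174287701 to 174296350) was 29.35 kb apart. The chromosome 6 pair at 28906101 to 28913150 and 28948051 to 28954600 was 34.9 kb apart with 1 shorter lower region between. On chromosome 7 the pair at 108163401 to 108169750 and 108206001 to 108212900 was 36.25 kb apart. Chromosome 3 had a pair at 98611151 to 98622350 and 98699001 to 98706000, the only 1 of the 8 with a higher region between its members. Chromosome 14 held 3 of the 8 pairs: the long pair described above, one at 61111601 to 61118000 and 61185101 to 61191850, and one at 21076701 to 21083650 and 21148301 to 21155200.

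With gaps of up to 1000000 bp allowed, 102 of the regions joined into 43 runs, of which 10 had 3 or more members. This distance was chosen after the data were seen. The run with the most members lay on chromosome 6 and held 7 broad regions over 2.4 Mb (26550351 to 28954600). It also contained 30 shorter lower regions and 8 higher regions. Its broad members were 6.2 to 9.05 kb long, none among the 51 longest. A run on chromosome 14 held 5 broad regions over 1.67 Mb (60556751 to 62222400), with 1 shorter lower region and 4 higher regions inside. That run included the pair of 13.15 and 13.9 kb domains. The runs differed in what lay between the broad regions: shorter lower regions outnumbered higher ones on chromosome 6, and higher regions outnumbered shorter lower ones on chromosome 14.

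No lower region overlapped a higher one, but the lists are opposite directions of 1 comparison, so nothing is read from that. The median broad lower region lay 297 kb from the nearest higher region (exact binomial interval of the median 240.5 to 347.9 kb, n = 305). For the 935 shorter lower regions the median was 406 kb (362.9 to 445.1 kb). A higher region lay within 100 kb of 75 broad regions, or 24.6% (95% Clopper-Pearson interval 19.9 to 29.8%), and of 153 shorter ones, or 16.4% (14.0 to 18.9%). Within 20 kb the counts were 27, or 8.85% (5.91 to 12.6%), and 25, or 2.67% (1.74 to 3.92%). Within 50 kb the shares were 15.1% (11.3 to 19.6%) of broad and 8.45% (6.75 to 10.4%) of shorter regions. The intervals overlapped at 10 kb (1.81 to 6.36% against 0.821 to 2.50%), at 500 kb (58.9 to 70.0% against 54.0 to 60.4%) and at 1 Mb (80.4 to 88.7% against 78.0 to 83.1%). Regions of 1 pair of libraries are not replicates, and neighbouring lower regions can share a nearest higher region. Whether these intervals overlap is therefore no test, and the difference was not tested. It varied among chromosomes. Of the 13 chromosomes with at least 10 broad regions, the median distance was smaller for broad than for shorter regions on 10 and larger on 3, chromosomes 2, 5 and 6. On 2 of the 10 the medians were close, with a difference (broad minus shorter) of -0.75 kb on chromosome 10 and -12.15 kb on chromosome 12. The share within 100 kb was larger for broad regions on 9 of the 13 and smaller on 4. On chromosome 12 none of the 17 broad regions, against 22.2% of the shorter ones, lay within 100 kb of a higher region.

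Among the broad regions themselves, those of at least 10000 bp had the largest share within 100 kb of a higher region. The share within 100 kb was 20.5% from 6000 to under 7500 bp and 21.4% from 7500 to under 10000 bp, with median distances of 303.5 and 310.1 kb. Over both classes it was 53 of 254, or 20.9% (95% Clopper-Pearson interval 16.0 to 26.4%), an interval that overlapped that of the shorter lower regions. Of the 51 regions of at least 10000 bp, 22 did, or 43.1% (29.3 to 57.8%), and these 22 lay on 12 chromosomes. The median distance of the 51 longest was 128 kb (exact binomial interval 77.25 to 318 kb). Among shorter lower regions the share was 16.1% under 3000 bp, 14.9% from 3000 to under 4500 bp and 18.7% from 4500 bp to the minimum. Within 20 kb the share was 7.48% (4.56 to 11.4%) from 6000 to under 10000 bp and 15.7% (7.02 to 28.6%) for the longest class. These intervals overlapped. For the shorter lower regions the share within 20 kb was 2.67% (1.74 to 3.92%). The median interval from 6000 to under 10000 bp (261.75 to 362.45 kb) overlapped that of the longest class. For the shorter regions it was 362.9 to 445.1 kb. The length classes were set after the data were seen, and whether these intervals overlap is no test.

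**Figure D2:**
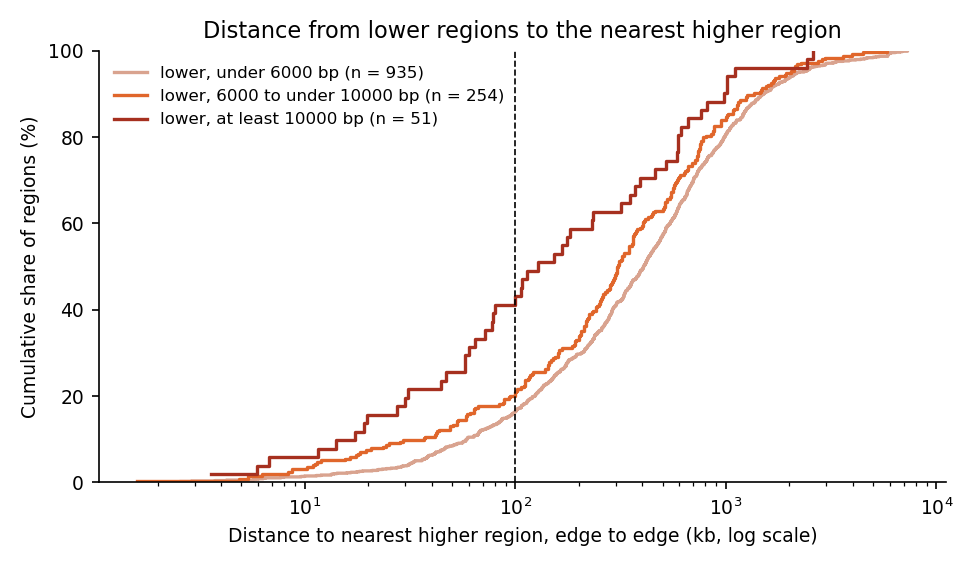
Cumulative share of lower regions (percent) against the distance to the nearest higher region, edge to edge in kb on a log scale, for 3 length classes. The dashed line marks 100 kb, where the curves reach 16.4%, 20.9% and 43.1% from the shortest to the longest class.

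The region nearest to a higher one was on chromosome 19 (39137701 to 39145500, 7.8 kb), where 1600 bp separated it from a higher region of 3200 bp (39147101 to 39150300). On chromosome 1 a 10000 bp domain (144923751 to 144933750) lay 3600 bp from a higher region of 5300 bp (144914851 to 144920150). A second on chromosome 1 (204374451 to 204381600) lay 4850 bp from a higher region of 650 bp (204386451 to 204387100). Next came a domain of 9 kb on chromosome 19 (13258001 to 13267000), 5350 bp from 3900 bp of gain (13272351 to 13276250). On chromosome 4 (75227501 to 75234300) the distance was 5400 bp and the higher region 3700 bp (75239701 to 75243400).

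Long domains were also among the nearest. The 15.95 kb domain on chromosome 11 (122037151 to 122053100) lay 5900 bp from a higher region of 4600 bp (122026651 to 122031250). A second chromosome 11 domain (128386451 to 128394200) lay 6250 bp from a higher region of 3050 bp (128377151 to 128380200). The 12.05 kb domain on chromosome 17 (57913301 to 57925350) lay 6750 bp from a higher region of 1200 bp (57932101 to 57933300). The last of the 10 nearest were on chromosomes 10 (42968501 to 42975300, 8350 bp from a higher region) and 14 (50357951 to 50365700, 8650 bp). Of the 10, the higher region lay toward lower coordinates in 3 and toward higher coordinates in 7. With no gene annotation, these sides cannot be read as upstream or downstream.

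Of the 75 regions with a higher region within 100 kb, 58 had exactly 1, which can lie on 1 side only, and 17 had more. Higher regions lay on both sides in 5 of the 75, which is 1.64% of all 305 broad regions. The same held for 10 of the 153 shorter lower regions with a higher region within 100 kb, which is 1.07% of all 935 shorter ones. The 5 broad regions, named after their values were seen, included the 12.05 kb chromosome 17 domain and a 12.3 kb domain on chromosome 10 (3817351 to 3829650), each with 3 higher regions within 100 kb. The chromosome 10 domain had 16 higher regions within 1 Mb, the most of any of the 305. The other 3 were on chromosomes 19 (13258001 to 13267000), 5 (90674001 to 90681100) and 21 (28988351 to 28994900).

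The nearest higher region within 100 kb had a median length of 2300 bp, against 1750 bp for all 2611 higher regions. The same value for the shorter lower regions is not given here, so nothing is read from this difference. Of all higher regions, 85 were at least 6000 bp long. The nearest higher region was that long for 6 of the 75 broad lower regions with one within 100 kb. Counting any higher region of that length within 100 kb, not only the nearest, 8 broad lower regions had one. The longest domain, on chromosome 1 (94693751 to 94715400), was among these 8, with a higher region of 9400 bp (94787551 to 94796950) 72.15 kb away. A 10.95 kb domain on chromosome 10 (4710601 to 4721550) lay 80.5 kb from a higher region of 13.0 kb (4802051 to 4815050). At the other extreme, a chromosome 5 domain (180613501 to 180620600) lay 5837.55 kb from any higher region, and 46 of the 305 had no higher region within 1 Mb.

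Neighbours called lower showed the opposite order. Another lower region of any length lay within 100 kb of 54 broad regions, or 17.7% (95% Clopper-Pearson interval 13.6 to 22.5%), and of 228 shorter ones, or 24.4% (21.7 to 27.3%). These intervals overlapped. Of the 305 broad regions, 188, or 61.6%, were nearer to a higher region than to another lower one, while 67.8% of all changed regions were higher. Among the 935 shorter regions the number was 448, or 47.9%. Of the changed regions adjacent to a broad one, 40.5% were lower, against 47.6% of those adjacent to a shorter one and 32.2% of all changed regions. Both adjacent regions were higher for 121 broad regions (39.7%) and lower for 63 (20.7%). For the 921 shorter regions with a changed region on each side, the counts were 279 (30.3%) and 234 (25.4%). For regions of at least 10000 bp the counts were 24 with higher on both sides and 5 with lower on both sides, of 51.

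Densities of higher regions around broad and shorter lower regions differed most within 50 kb and came close at larger distances. In the first 10 kb of flank, 11 higher regions were found around the 305 broad lower regions and 13 around the 935 shorter ones. From 10 to 25 kb the densities were 2.30 higher regions per Mb of flank around broad regions and 0.677 per Mb around shorter ones, from 21 and 19 regions. From 500 to 1000 kb they were 1.12 and 1.10 per Mb. Lower regions in the first 10 kb occurred at 1.48 per Mb around broad regions and 2.94 per Mb around shorter ones, from 9 and 55 regions. The difference did not narrow steadily with distance. The densities were 1.90 and 2.03 per Mb from 25 to 50 kb, and 1.28 and 2.34 per Mb from 50 to 100 kb. They were 0.780 and 1.17 per Mb from 250 to 500 kb, and 0.879 and 1.01 per Mb from 500 to 1000 kb. Length chose the members within this same lower list, and stretches joined into 1 lower region are not counted as neighbours. How stretches were joined is not known here, so nothing is read from the densities of lower regions.

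**Figure D3:**
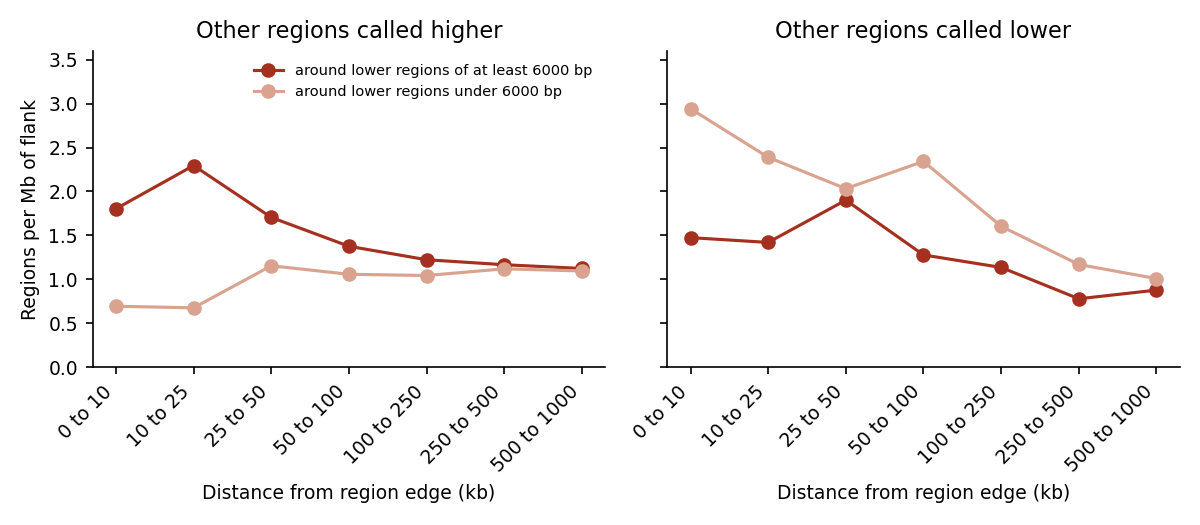
Density of other changed regions (regions per Mb of flank) by distance from the region edge in kb, around lower regions of at least 6000 bp (dark) and under 6000 bp (light). Left, regions called higher, at 2.30 against 0.677 per Mb from 10 to 25 kb. Right, regions called lower, at 1.48 against 2.94 per Mb within 10 kb. Length chose the regions within the lower list, so nothing is read from the right panel.

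Broad regions stood toward the top of the deposited list, which is not in genome order. No source used here gives what the authors ordered it by, so a line number is not a score. Of the first 124 of its 1241 lines, 75 were broad lower regions, and of the last 124 lines 12 were. The first 620 lines held 213 of the 305, or 69.8%. The median line was 309 for broad regions and 704 for shorter ones. Within the 305, the median line was 161 for the 51 regions of at least 10000 bp and 385.5 for the 120 under 7000 bp. Spearman's rho between line and length was -0.23 over the 305, which share 1 pair of libraries. Length did not fix the line. The longest domain was on line 20, whereas the next longest, on chromosome 1 (156082651 to 156099000), was on line 1120. The first 3 lines were broad regions on chromosome 1 (144923751 to 144933750) and chromosome 9 (66690151 to 66701250 and 69873601 to 69884000). Neither these regions nor the others of the list were checked here for repeated sequence or for how well reads map there. The mitochondrial call stood on line 6.

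**Figure D4:**
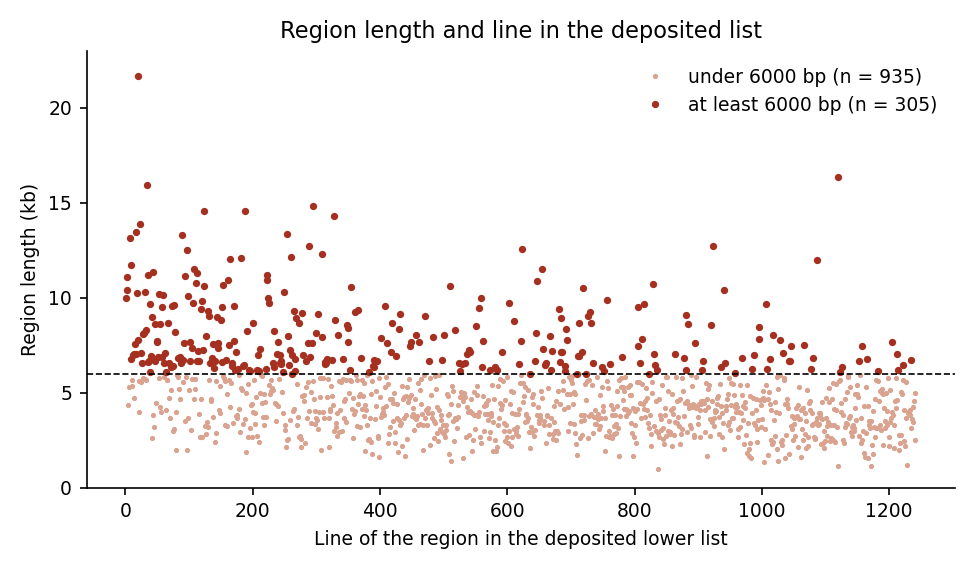
Length of each lower region (kb) against its line in the deposited lower list, with regions of at least 6000 bp in dark red and the dashed line at 6 kb. Broad regions are densest at the left, with 75 in the first 124 lines and 12 in the last 124.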

How the data were processed

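H3K4me3 ChIP-seq of MDA-MB-231-Luc cells with a hairpin against CBX8 was set against cells with a scrambled hairpin, 1 library each. The authors deposited lists of 3 columns (chromosome, start, end) of regions lower or higher after knockdown, at a q-value of 0.002, as the list names state. The submitters' processing notes name the build hg19 and the tools SICER, MACS2 2.1.0, Bowtie 1.0.0 and FastQC 0.10.0. Which tool called changed regions, its gap and window settings, and the use of input or depth scaling are not given in the sources used here, and these settings could change region lengths.

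Starts lay on a 50 bp grid and ends 1 bp below it, so length was end plus 1 minus start. Distances were measured edge to edge. Shares have exact 95% Clopper-Pearson intervals and medians exact binomial intervals, which cover counting error over regions only. The code was tested on planted positions. Members and lists were chosen with earlier results of these data known. The regions named by rule are the 15 longest, the 10 nearest to a higher region and 3 on each side of the length minimum; runs of 3 or more within 100 kb, also in the rule, were not found. Others were named after their values were seen. The planned counts at gene starts and of gene lists were not run, since no hg19 annotation was used here. Python 3.11.15, numpy 2.4.6, pandas 2.3.3, scipy 1.17.1 and matplotlib 3.10.9 were used.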

Additional observations from a re-analysis of the deposited data

How the results depend on the processing

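The count of 305 broad lower regions became 496 with a minimum of 5000 bp and 120 with 8000 bp. Nearby broad regions, 5.28% within 100 kb, became 16.8% within 500 kb, 10.1% with a 5000 bp minimum, 1.71% with 8000 bp and 8.89% after merging lower regions closer than 5000 bp. By construction, these settings take in more or fewer regions or a wider distance. The share of broad regions within 100 kb of a higher region, 24.6%, was 15.1% within 50 kb. With higher regions under 2000 bp left out, an alternative chosen after seeing the data, it was 16.7% and the median distance 640 kb. For regions of at least 10000 bp the share of 43.1% was 25.5% within 50 kb, and 33.7% and 52.4% with minimums of 9000 and 12000 bp; these were also chosen after seeing the data. The gap between broad and shorter lower regions, 8.23 percentage points, stayed positive under the 7 alternatives run, from 6.32 to 10.1 points. Of 38 alternative values for 6 results, 28 stayed within the interval or the 1.5-fold range used to judge them. Read depth is unknown and limits every statement on what is missing from the lists. Counts at gene starts were not run. No paired analysis was possible because each condition had 1 library.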
